A study of Mus musculus with 16 samples.

Results

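Structural genes of the extracellular matrix were followed through the muscle of the mouse proximal colon. They were taken by symbol from the platform's annotation of probes, as the numbered collagen and laminin chains, the fibulins, fibrillins and emilins, elastin, the microfibril-associated proteins, the nidogens, decorin, lumican, biglycan, the spondins, Sparc and the thrombospondins. The rule found 55 of 11055 named genes and used no measured value. It also covered fibronectin, periostin and the Efemp genes, but matched no gene of these in the annotation. Of the fibrillins it found only Fbn2, and of the spondins only Spon2. A probe detected on at least 4 of 16 arrays was present for 49 of the 55. The other 6, Col11a1, Col17a1, Col25a1, Col4a3, Col7a1 and Col8a2, were detected on fewer arrays and were not tested.

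The matrix of the gut wall is built by fibroblasts and smooth muscle cells and carries the tension that the muscle develops. Fibrillar collagens form the cables that bear load, while collagen IV, laminins and nidogens form the basement membrane that ensheathes each muscle cell, vessel and nerve bundle. Elastin, deposited on a scaffold of microfibrils, gives recoil, and small proteoglycans and matricellular proteins regulate how fibrils assemble and how cells attach.

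RNA of wild type C57Bl/6 mice was hybridized to 16 Illumina BeadChips, 4 for each of 4 groups. GF mice carried no microbes and SPF mice carried a conventional microbiota free of specific pathogens. The other groups were GF mice colonized by gavage with cecal contents of SPF donors, either untreated donors (control recipients) or donors with pharmacologically induced constipation after 7 days on water with 0.1% loperamide (PIC recipients). Recipients were studied 4 weeks after colonization according to the labels, or 3 to 4 weeks according to the methods, and received no loperamide themselves. The methods give an age of 8 to 10 weeks for SPF mice put on loperamide and for GF mice at colonization. The results of the paper instead give 12 to 14 weeks for GF mice at colonization, so the stated ages conflict. The description of the series calls the colonized GF mice matched in age to these SPF mice, and gives no separate age for the uncolonized GF and the untreated SPF mice. The tissue was labelled as smooth muscle. Values are log2 of the background-corrected, quantile-normalized intensity. Differences are log2 fold changes between group means, and a gene was called when its limma p-value, adjusted by Benjamini-Hochberg over all probes kept, was under 0.05.

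The arrays had a median intensity of 117 to 168, and 12364 to 13942 of 25697 probes were detected. The labels do not say whether each array holds a separate animal, so the p-values reflect how arrays of a group differ, whether by animal or by handling. Xist was above 6.6 on 5 arrays (SPF 4, and replicates 2 and 3 of both recipient groups) and below 5 on the rest, so the groups may differ in their share of females. SPF 2 and SPF 4 stood apart from the other arrays on the first principal component of all genes (48.1 and 48.1, the others between -28.2 and 13.6), which held 33.6% of the variance. GF 2 lay at the opposite end. Counts of calls that rest on these arrays are given with and without them.

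Structural matrix genes were higher in SPF than in GF muscle. Of the 49 genes tested, 21 were called higher and 0 lower, where 10.9% of all 9862 genes tested were called higher and 9.55% lower. The median log2 fold change of the 49 was 0.60, with 42 above 0, against a median of 0.01 over all genes, of which 50.8% were above 0. All 4 SPF arrays lay above all 4 GF arrays for 17 of the 49, against 9.17% of all genes, and below them for 1, Lama4, against 9.71%. Called genes were spread over the 7 classes of structural protein: 3 of 8 fibrillar collagens, 3 of 6 basement membrane and network collagens, 3 of 8 other collagens, 3 of 9 laminins and nidogens, 4 of 10 elastic fibre proteins, 1 of 3 small leucine-rich proteoglycans and 4 of 5 adhesive glycoproteins.

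**Figure D1:**
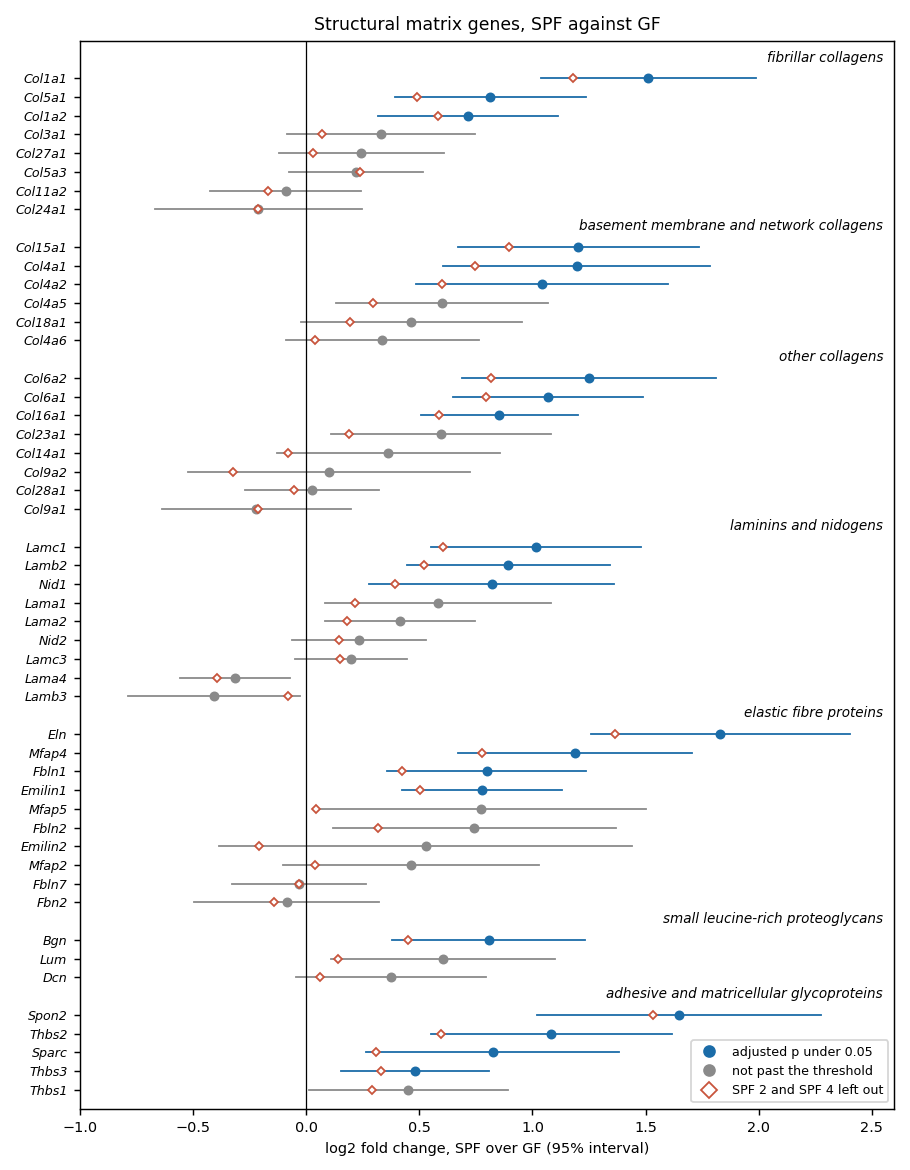
Log2 fold change of SPF over GF mice for the 49 structural matrix genes, by class, with 95% intervals (filled circles, blue where the adjusted p was under 0.05) and with SPF 2 and SPF 4 left out (open diamonds). The largest differences were those of Eln, Spon2 and Col1a1, which were also the 3 genes called without these arrays.

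Most of the size of this difference rested on SPF 2, SPF 4 and GF 2. SPF 2 and SPF 4 were the 2 highest SPF arrays for 37 of the 49 genes and for 20 of the 21 called, and GF 2 was the lowest GF array for 39 of the 49. Over all genes, SPF 2 and SPF 4 were the top pair for 27.4% and GF 2 the lowest GF array for 30.9%. Without SPF 2 and SPF 4 the median fell to 0.24, 38 of 49 genes stayed above 0, and 3 genes were called, Col1a1, Eln and Spon2, where 2.7% of all genes were called higher. Without GF 2 as well, 3 were called and the median was 0.08, where 2.24% of all genes were called higher and 1.83% lower. Without SPF 2 and SPF 4, the median and the count of genes above 0 thus kept their direction, at a smaller size. Without GF 2 as well, the median stayed above 0 but near the 0.01 of all genes in that fit.

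Among fibrillar collagens, Col1a1 differed most. It encodes the alpha 1 chain of type I collagen, the main tensile fibril of connective tissue. Its log2 values on GF 1 to 4 were 7.99, 7.39, 7.80 and 7.93, and on SPF 1, 2, 13 and 4, the order kept from here on, they were 9.29, 9.66, 8.63 and 9.58. The lowest SPF array was above the highest GF array, and the log2 fold change was 1.51 (95% interval 1.04 to 1.99, adjusted p = 0.00102), or 2.85-fold. Without SPF 2 and SPF 4 it was 1.18 (adjusted p = 0.0186). Col1a2, the partner chain of the same trimer, stood at 6.23, 5.65, 6.44 and 6.74 on GF arrays and at 6.89, 7.02, 6.81 and 7.20 on SPF arrays. Again the groups did not overlap, with a smaller log2 fold change of 0.71 (interval 0.32 to 1.11, adjusted p = 0.0167).

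Col5a1 encodes a chain of type V collagen, which nucleates type I fibrils and limits their diameter. It was at 9.84, 9.12, 9.75 and 9.86 on GF and 10.24, 10.85, 10.03 and 10.71 on SPF arrays, again with no overlap (log2 fold change 0.81, interval 0.39 to 1.24, adjusted p = 0.012). Type III collagen, the fibril of distensible organs, depended on the probe. The brighter Col3a1 probe gave 0.33 (interval -0.08 to 0.75, adjusted p = 0.245) and the dimmer one 0.80 (interval 0.27 to 1.33, adjusted p = 0.0362). Col11a2, a chain of the cartilage collagen XI, had the smallest difference of the class. It was at 5.0, 5.25, 5.43 and 5.55 on GF and 5.21, 5.16, 5.06 and 5.43 on SPF arrays, within each other's range (log2 fold change -0.09, interval -0.43 to 0.24). Col5a3, Col24a1 and Col27a1 were dim and had log2 fold changes between -0.21 and 0.24, all short of the threshold.

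Collagens of basement membranes and networks had the highest median of the collagen classes, 0.82. Col4a1 and Col4a2 encode the chains of the ubiquitous collagen IV trimer and are read from opposite strands. Col4a1 was at 10.12, 9.26, 10.58 and 10.47 on GF arrays and 10.90, 11.80, 10.81 and 11.70 on SPF arrays. The groups did not overlap, and SPF 2 and SPF 4 were the highest of the SPF arrays (log2 fold change 1.20, interval 0.61 to 1.78, adjusted p = 0.00929).

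Col4a2 was at 9.88, 9.09, 10.08 and 10.01 on GF and 10.56, 11.30, 10.17 and 11.18 on SPF arrays, with a log2 fold change of 1.04 (interval 0.49 to 1.60, adjusted p = 0.0136). The arrays were ranked as for Col4a1, and the call was lost without SPF 2. Col15a1, a proteoglycan collagen that links basement membranes to the fibrils around them, was at 7.21, 5.99, 6.98 and 7.11 on GF and 7.82, 8.53, 7.62 and 8.14 on SPF arrays. GF 2 was the lowest of all 16 arrays, and the groups did not overlap (log2 fold change 1.20, interval 0.67 to 1.74, adjusted p = 0.00558).

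The other chains of the class were not called. Col4a6, which forms a trimer with Col4a5 in basement membranes of smooth muscle, had the smallest difference. It was at 4.77, 5.78, 4.84 and 4.94 on GF and 4.98, 5.72, 5.27 and 5.72 on SPF arrays, where GF 2 was the highest of the 8, so that the groups overlapped (log2 fold change 0.34, interval -0.09 to 0.76). Col4a5 had a log2 fold change of 0.60 (adjusted p = 0.0667) and Col18a1, the precursor of endostatin, 0.47 (adjusted p = 0.163).

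Type VI collagen makes beaded microfibrils between the basement membrane and the interstitial fibrils, and both of its measured chains were called higher. Col6a2 was at 8.02, 7.27, 7.73 and 8.14 on GF and 8.70, 9.51, 8.51 and 9.43 on SPF arrays, and Col6a1 at 11.06, 10.13, 10.88 and 10.87 and 11.59, 12.23, 11.48 and 11.93. In neither gene did the groups overlap. The log2 fold change was 1.25 for Col6a2 (interval 0.69 to 1.81, adjusted p = 0.00601) and 1.07 for Col6a1 (interval 0.65 to 1.49, adjusted p = 0.00331), with 0.60 (adjusted p = 0.0626) on a second, dimmer Col6a1 probe.

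Col16a1, a collagen found on the surface of fibrils and microfibrils, was at 9.26, 8.69, 9.55 and 9.17 on GF and 9.79, 10.29, 9.72 and 10.28 on SPF arrays. The highest GF array was GF 3, still below the lowest SPF array (log2 fold change 0.85, interval 0.51 to 1.20, adjusted p = 0.00409). Col28a1, a collagen known from the sheath of peripheral nerves, did not follow. Its values were 5.76, 5.55, 5.45 and 5.55 on GF and 5.55, 6.08, 5.5 and 5.29 on SPF arrays, overlapping, with a log2 fold change of 0.03 (interval -0.27 to 0.32). Its sign turned in several alternatives. Col14a1, Col23a1, Col9a1 and Col9a2 were not called, with log2 fold changes from -0.22 to 0.60.

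To show what lies before the starts of genes that were higher together, the 250 bases upstream of 3 of these genes are printed from RefSeq windows of build GRCm38.p6, 5′ to 3′ on the strand of the gene. Col6a2 has 2 windows, and the one before its outermost annotated start is shown. They were chosen after their values were seen. They are Col1a2, the partner chain of Col1a1, and both collagen VI genes, which lie near each other on 1 chromosome. Capitals mark CCAAT and GGGCGG in either orientation, which are the letters of the CCAAT box and of the GC box.
Col1a2, chr6:4505368-4505617, plus strand: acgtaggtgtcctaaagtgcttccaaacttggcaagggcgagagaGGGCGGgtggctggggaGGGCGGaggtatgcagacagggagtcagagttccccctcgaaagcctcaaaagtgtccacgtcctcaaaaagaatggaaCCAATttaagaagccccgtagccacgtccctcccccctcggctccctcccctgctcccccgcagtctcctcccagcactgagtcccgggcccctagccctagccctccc
Col6a1, chr10:76726045-76726294, minus strand: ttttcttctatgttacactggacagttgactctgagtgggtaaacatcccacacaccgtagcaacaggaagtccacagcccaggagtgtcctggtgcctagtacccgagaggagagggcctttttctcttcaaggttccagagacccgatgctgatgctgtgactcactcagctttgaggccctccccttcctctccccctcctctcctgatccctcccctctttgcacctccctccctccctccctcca
Col6a2, chr10:76623631-76623880, minus strand: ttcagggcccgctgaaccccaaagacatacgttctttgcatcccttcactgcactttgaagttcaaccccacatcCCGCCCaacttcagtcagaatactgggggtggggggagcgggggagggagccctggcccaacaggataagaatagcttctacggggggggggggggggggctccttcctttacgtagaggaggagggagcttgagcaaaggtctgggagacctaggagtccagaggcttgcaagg
In the Col1a2 window CCAAT began 109 bases before the start and GGGCGG occurred at 2 places. The Col6a2 window held GGGCGG at 1 place, read on the opposite strand and beginning 175 bases before the start, and no CCAAT, while the Col6a1 window held neither. Windows were found for 34 of the 49 genes tested, 41 windows in all. GGGCGG was present in 51.2% of these and in 55.6% of the 18 windows of genes called higher, against 32.7% of all 32851 windows. CCAAT was present in 31.7% and 38.9%, against 33.8% of all windows. TATAAA, the letters of the TATA box, was present in 7.32% and 5.56%, against 12.4%. The CArG pattern, CC and GG around a run of A or T, was present in 2.44% of windows of tested genes. It was in 0 of the 18 windows of genes called higher, against 1.47% of all windows. All windows include those of genes that were not tested here. These are matches of letters only.

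Laminins, the trimers that organize basement membranes, differed by chain. Lamc1, the gamma 1 chain shared by most laminins, was at 8.23, 7.49, 8.39 and 8.16 on GF and 8.74, 9.58, 8.61 and 9.41 on SPF arrays. The groups did not overlap (log2 fold change 1.01, interval 0.55 to 1.48, adjusted p = 0.00663). Lamb2, a beta chain of muscle and vessel basement membranes, was at 8.11, 7.77, 8.75 and 8.14 on GF and 8.73, 9.51, 8.69 and 9.40 on SPF arrays. GF 3 was above SPF 1 and SPF 13 here, so the groups overlapped, although the log2 fold change of 0.89 passed the test (interval 0.44 to 1.34, adjusted p = 0.0102).

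Nid1, which bridges laminin and collagen IV, was at 8.35, 7.75, 8.91 and 8.65 on GF and 8.92, 9.89, 8.69 and 9.44 on SPF arrays, and also overlapped between groups. Its log2 fold change was 0.82 (interval 0.28 to 1.36, adjusted p = 0.0348), and the call was lost without GF 1, GF 2, SPF 2 or SPF 4 in turn. The alpha chains Lama2, of muscle laminin, and Lama1 had log2 fold changes of 0.42 (adjusted p = 0.0718) and 0.58 (adjusted p = 0.0914).

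Some laminin chains had values in the other direction. Lama4, the alpha chain of endothelial and mesenchymal basement membranes, was at 5.20, 5.29, 5.48 and 5.37 on GF and 4.98, 5.14, 4.91 and 5.06 on SPF arrays. Every SPF array was below every GF array, but the difference of -0.31 did not pass (interval -0.56 to -0.07, adjusted p = 0.063). The Lama4 probe was dim and was detected on 4 of 4 GF but only 2 of 4 SPF arrays. Before background correction and normalization its mean intensity was 139.3 in GF and 152.9 in SPF mice, so the lower SPF values appeared only after these steps. Lamb3, a chain of the epithelial laminin 332, differed by -0.41 (interval -0.79 to -0.03, adjusted p = 0.119), with SPF 2 at 9.56 and SPF 4 at 9.83 as the lowest of the 8 arrays. Lamc3, the smallest difference of the class, was at 5.34, 4.72, 5.34 and 5.20 on GF and 5.31, 5.44, 5.29 and 5.37 on SPF arrays (log2 fold change 0.20, interval -0.05 to 0.45).

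Eln, the gene of elastin, had the largest difference of all 49. It was at 5.80, 5.24, 6.29 and 6.20 on GF and 7.31, 8.23, 7.18 and 8.12 on SPF arrays. Every SPF array was above every GF array, and the log2 fold change was 1.83 (interval 1.26 to 2.40, adjusted p = 0.00102), or 3.56-fold, and 1.36 (adjusted p = 0.0164) without SPF 2 and SPF 4. Eln kept its call in 23 of 24 alternatives and lost it only under the methods' t-test (adjusted p = 0.0679).

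Of the other elastic fibre genes 3 were called, each with a smaller log2 fold change than Eln. Mfap4, which binds elastin and fibrillin, was at 8.12, 7.23, 7.77 and 7.58 on GF and 8.56, 9.38, 8.35 and 9.17 on SPF arrays, with no overlap (log2 fold change 1.19, interval 0.67 to 1.70, adjusted p = 0.00534). Fbln1, a fibulin found in elastic fibres, was at 10.93, 10.29, 10.83 and 10.66 on GF and 10.98, 11.76, 11.22 and 11.94 on SPF arrays. It also did not overlap (log2 fold change 0.80, interval 0.36 to 1.24, adjusted p = 0.0158), its second probe gave 1.33 (adjusted p = 0.00527), and the call of the brighter probe was lost without GF 2 or without SPF 2.

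Emilin1, which lies between elastin and microfibrils, was higher by 0.78 on the log2 scale (interval 0.42 to 1.13, adjusted p = 0.00649). Not called were Mfap5 at 0.77, Fbln2 at 0.74 (0.11 on its second probe), Emilin2 at 0.53 and Mfap2 at 0.46, whose other probes gave -0.03 and 0.05. Fbn2, the fibrillin mostly of development, had -0.09. Fbln7 had the smallest difference, -0.03 (interval -0.33 to 0.26), with 4.97, 4.85, 5.47 and 5.0 on GF and 5.07, 5.05, 5.01 and 5.03 on SPF arrays, and its sign turned in 3 alternatives.

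The small leucine-rich proteoglycans bind collagen fibrils and regulate their spacing. Bgn, biglycan, was at 11.60, 10.89, 11.67 and 11.47 on GF and 11.90, 12.61, 11.82 and 12.54 on SPF arrays, with no overlap (log2 fold change 0.81, interval 0.38 to 1.23, adjusted p = 0.013), and lost its call without SPF 2. Dcn, decorin, was at 12.55, 11.90, 12.93 and 12.34 on GF and 12.55, 13.17, 12.44 and 13.07 on SPF arrays. GF 3 was above SPF 1 and SPF 13, and the log2 fold change of 0.38 (interval -0.05 to 0.80) did not pass. Lum, lumican, had 0.60 (adjusted p = 0.0783).

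Among adhesive proteins Spon2, also called mindin, a matrix protein that binds bacterial surfaces in innate defence, was at 11.07, 10.33, 11.02 and 11.93 on GF and 12.75, 13.40, 12.49 and 12.29 on SPF arrays. Here SPF 4 was the lowest SPF array and GF 4 the highest GF array, and the groups still did not overlap. The log2 fold change was 1.65 (interval 1.02 to 2.28, adjusted p = 0.00281), or 3.13-fold, and 1.53 (adjusted p = 0.0221) without SPF 2 and SPF 4.

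Thbs2, a matricellular regulator of collagen fibril assembly, was at 8.29, 7.52, 8.62 and 8.24 on GF and 8.89, 9.90, 8.64 and 9.58 on SPF arrays, with SPF 13 just above GF 3 and no overlap (log2 fold change 1.08, interval 0.55 to 1.62, adjusted p = 0.00911). Sparc, a collagen-binding glycoprotein of remodelling tissue, was at 10.97, 10.26, 11.34 and 11.07 on GF and 11.25, 12.27, 11.20 and 12.23 on SPF arrays. It overlapped between groups, and its call (0.82, interval 0.27 to 1.38, adjusted p = 0.0387) was kept in only 3 of 8 fits that left out 1 array. A second, dimmer Sparc probe gave 0.78 and was not called (adjusted p = 0.086). Thbs3 was called at 0.48 (adjusted p = 0.0396), with 0.41 and -0.08 on its other probes. Thbs1, an activator of latent TGF-beta, was at 5.64, 5.83, 5.11 and 5.87 on GF and 6.01, 6.49, 5.80 and 5.96 on SPF arrays (log2 fold change 0.45, interval 0.01 to 0.89, not called).

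**Figure D2:**
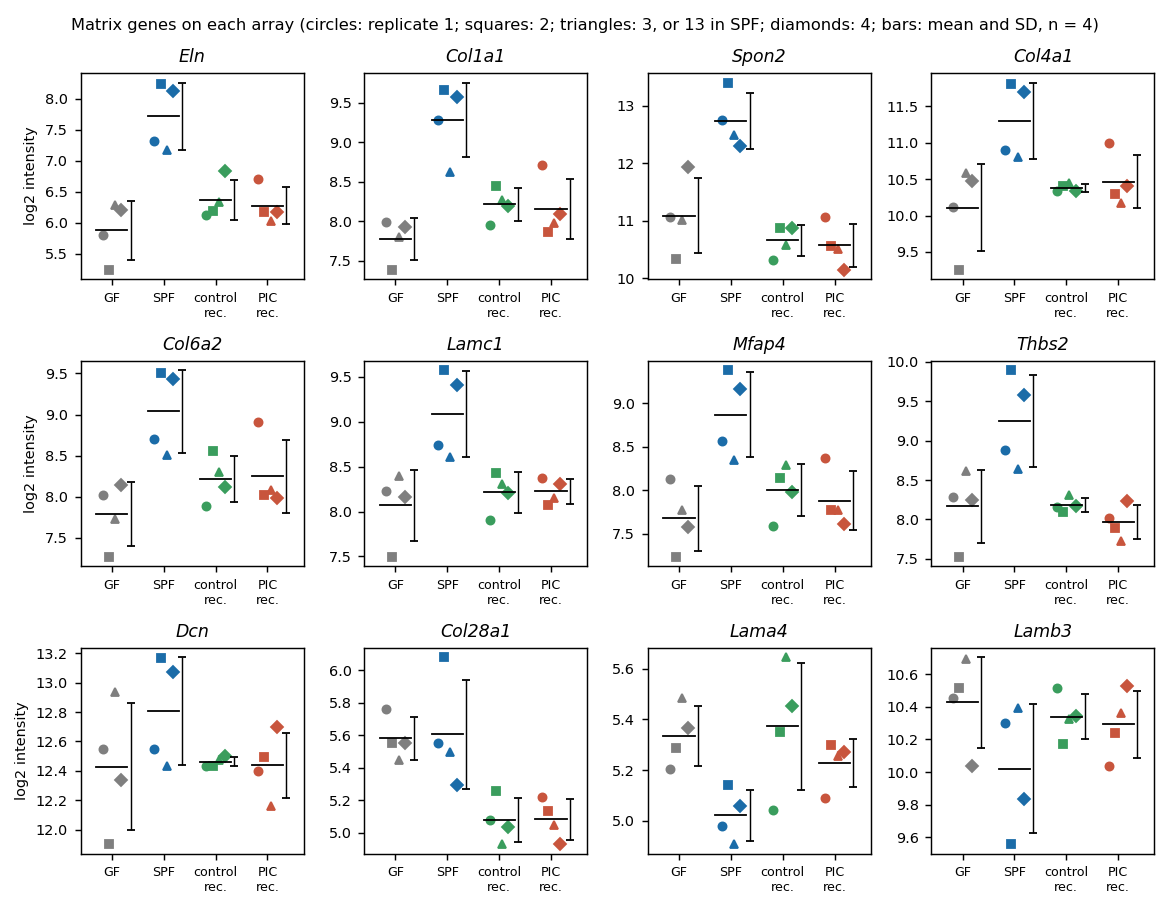
Log2 intensity on each array for 12 structural matrix genes in GF, SPF, control recipient and PIC recipient mice (points), with the mean and SD of 4 arrays (bars). In Eln, Col1a1 and Spon2 every SPF array is above every GF array, and in Col28a1 both recipient groups lie below all GF and SPF arrays.

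Enzymes that build and crosslink collagen and elastin were examined beside the structural genes. Of 21 tested, 9 were higher and 0 lower in SPF than in GF mice, with a median of 0.48. Over all genes, 10.9% were called higher and 9.55% lower. The lysyl oxidases, which crosslink both polymers, had the smallest p-values: the log2 fold change was 1.14 for Lox (adjusted p = 0.00488), 1.27 for Loxl1 (adjusted p = 0.00839) and 0.67 for Loxl2 (adjusted p = 0.00932). Of 17 matrix receptors, 7 were higher and 1 lower. The fibronectin receptor chain Itga5 was higher by 1.34 (adjusted p = 4.99e-04), the collagen receptor chain Itga1 by 1.05 (adjusted p = 0.00174) and the collagen receptor kinase Ddr2 by 0.90 (adjusted p = 0.00929), while Itga3, a receptor chain for epithelial laminins, fell by 0.44 (adjusted p = 0.00982). Of 16 genes of the TGF-beta pathway, a main inducer of matrix synthesis, 8 were higher and 0 lower. These included the ligand Tgfb3 at 0.99 (adjusted p = 0.00316), the receptor Tgfbr2 at 0.50 (adjusted p = 0.00917) and the matricellular target Ccn2 at 0.76 (adjusted p = 0.00932). Without SPF 2 and SPF 4, 0 crosslinking and biosynthetic genes were called higher and 1 lower, Pcolce2, an enhancer of procollagen processing, 5 receptors were higher (Itga1, Itga2, Itga5, Dag1 and Cd44), and 0 of the 16 TGF-beta genes were called. In that fit 2.7% of all genes were called higher and 2.16% lower. Without GF 2 as well, 1 crosslinking and biosynthetic gene was higher (Plod2) and 1 lower (Pcolce2), 2 receptors were higher (Itga1 and Itga5), and 0 TGF-beta genes were called. Over all genes, 2.24% were then called higher and 1.83% lower.

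Markers of smooth muscle, endothelium and pericytes were mostly higher in SPF mice, while fibroblast markers were mixed. Over all genes, 10.9% were called higher and 9.55% lower. Of 10 smooth muscle markers, 7 were called higher in SPF mice, with a median of 0.72, while Acta2 and Actg2 had -0.07 and 0.06. Their mean was 11.13 to 11.91 on SPF arrays, highest on SPF 2 and SPF 4, and 10.53 to 11.31 on GF arrays, lowest on GF 2. Of 10 endothelial markers 6 were higher (mean 7.76 to 8.48 against 7.09 to 7.68) and of 5 pericyte markers 3 (7.51 to 8.25 against 6.91 to 7.56). Of 12 fibroblast markers outside the structural genes 2 were higher, Pdgfra and Pdgfrb, and 1 lower, Dpep1, with a median of 0.19 and means of 7.76 to 8.56 against 7.54 to 8.45.

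Epithelial markers were present as well: all 9 tested of a list of 14 were detected on every array, although the tissue was labelled as smooth muscle. Of these 9, 0 were higher and 4 lower in SPF mice, Krt19, Krt20, Vil1 and Cldn7, with a median of -0.40. Their mean was 11.07 on SPF 2 and 11.39 on SPF 4, 11.55 and 11.66 on the other SPF arrays, and 11.66 to 11.99 on GF arrays, highest on GF 2. Of 3 mesothelial markers 1 was higher, and 0 of 3 adipocyte markers were called. With the epithelial mean as a covariate, 1 structural gene, Eln, was called higher and the median was 0.09, where 0.75% of all genes were called higher and 0.416% lower. With the smooth muscle mean as a covariate, chosen after seeing the data, Eln was again the single call and the median was 0.08, where 1.72% of all genes were called higher and 1.13% lower. Without SPF 2 and SPF 4, 0 smooth muscle, 0 endothelial, 0 pericyte, 0 mesothelial and 0 epithelial markers were called, and 1 fibroblast marker, Pdgfrb, was higher. The medians were 0.29 for smooth muscle, 0.34 for endothelial and -0.25 for epithelial markers. Without GF 2 as well, 0 markers of any of these lists were called. In whole tissue, more cells of a type and more RNA per cell cannot be told apart.

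**Figure D3:**
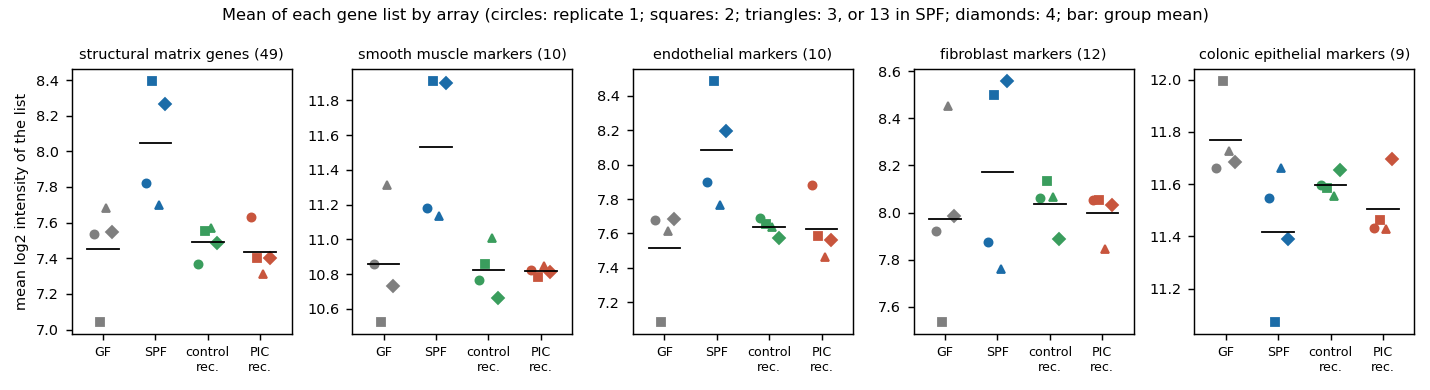
Mean log2 intensity of the 49 structural matrix genes and of 4 lists of cell type markers on each array (points), with the group mean (bar). SPF 2 and SPF 4 are the highest for matrix genes, muscle, endothelium and fibroblasts and the lowest for epithelium, and GF 2 is the lowest for the first 4 lists and the highest for epithelium.

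Colonization of GF mice was compared with the GF state next. After colonization with control microbiota, 0 of 49 structural genes were called in limma's test, where 2.76% of all genes were called, and 2 had an unadjusted p under 0.05, against 17.7% of all genes (3 by the methods' t-test, against 18.8%). The median log2 fold change was 0.04, against -0.0085 over all genes, and with median scaling of the arrays it was -0.06, against -0.11 over all genes. The 95% intervals, which are not adjusted for the number of probes, had a median half-width of 0.45. With 4 arrays a group, differences smaller than this were mostly not detectable, and a call after adjustment generally needed a larger one. All 4 control recipient arrays lay above the GF arrays for 1 gene and below them for 1, against 6.39% and 7.06% of all genes.

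The genes of smallest p were Col28a1, Lama2 and Col1a1. Col28a1 stood at 5.08, 5.26, 4.93 and 5.04 on control recipient arrays 1 to 4, all below the lowest GF array (log2 fold change -0.50, interval -0.80 to -0.21, adjusted p = 0.0647). Lama2, at 6.30, 5.98, 6.56 and 6.50 on GF and 6.69, 6.65, 6.94 and 6.66 on control recipient arrays, was above every GF array without passing (0.40, interval 0.07 to 0.73, adjusted p = 0.193). Col1a1 was at 7.95, 8.45, 8.26 and 8.20, overlapping GF arrays (0.44, interval -0.03 to 0.91, adjusted p = 0.319). For the 21 genes higher in SPF than in GF mice, values against the same GF arrays ran from -0.43 to 0.49, with a median of 0.16. These genes were picked partly for low values on the same GF arrays, which favours values above 0 here.

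After colonization with microbiota of constipated donors, 1 of 49 genes was called against GF mice, where 3.86% of all genes were called lower and 3.33% higher. This was Col28a1, at 5.22, 5.13, 5.05 and 4.93 on PIC recipient arrays 1 to 4, all below the lowest GF array (log2 fold change -0.50, interval -0.79 to -0.20, adjusted p = 0.0424). The call was near the threshold and was lost in each fit that left out GF 1, GF 3, GF 4 or any 1 PIC recipient array. The probe was detected on 4 of 4 GF, 4 of 4 SPF and 1 of 4 arrays in each recipient group. The median of the 49 genes was -0.07, and the 21 genes higher in SPF mice had values from -0.52 to 0.46 with a median of 0.14. The latter median is favoured upward in the same way, since the 21 were picked on these GF arrays. Leaving out GF 2 together with SPF 2 and SPF 4, chosen after seeing the data, gave 6 calls, all lower, where 7.19% of all genes were called lower, and 3 in control recipients, all lower, where 3.3% were.

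PIC and control recipients were compared directly to ask whether microbiota of constipated donors changed these genes. Of the 49 genes, 0 were called in limma's test, where 0% of all genes were called, and 0 had an unadjusted p under 0.05, against 3.78% of all genes. The methods' t-test gave 2 at an unadjusted p under 0.05, against 6.39% of all genes, and 0 after adjustment. The median log2 fold change was -0.05, and the values lay between -0.40 and 0.14. All PIC recipient arrays lay below all control recipient arrays for 2 genes and above them for 0, against 2.36% and 1.84% of all genes.

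The smallest p-values were those of Lama2, Lama1 and Col16a1. Lama2 was at 6.69, 6.65, 6.94 and 6.66 on control and 6.33, 6.30, 6.77 and 6.47 on PIC recipient arrays (-0.27, interval -0.60 to 0.07). Lama1 was at 4.96, 5.95, 5.45 and 5.32 and 5.31, 4.87, 4.90 and 5.01 (-0.40, interval -0.90 to 0.10), and Col16a1 at 8.99, 9.23, 9.25 and 9.16 and 8.84, 8.98, 8.95 and 8.84 (-0.26, interval -0.60 to 0.09). Col16a1 did not overlap between the groups, the others did, and all 3 had an adjusted p of 0.9999. The 95% intervals of single genes had a median half-width of 0.45, and the lowest and highest bounds of any gene were -1.08 and 0.76.

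**Figure D4:**
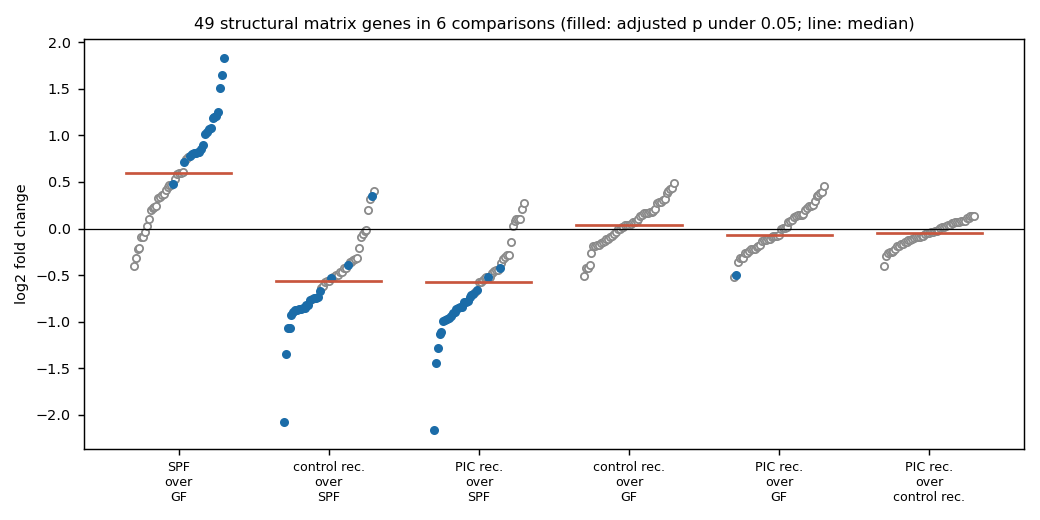
Log2 fold changes of the 49 structural matrix genes in 6 comparisons, each sorted by its own values (filled where the adjusted p was under 0.05), with the median (line). Medians are 0.60 for SPF over GF, -0.56 and -0.58 for control and PIC recipients over SPF, and between -0.07 and 0.04 in the other comparisons.

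Recipients were also set against SPF mice, with the same SPF arrays as in the comparison with GF mice. In control recipients 21 of 49 genes were lower and 1 was higher, against 9.44% and 6.94% of all genes, and the median was -0.56. In PIC recipients 25 were lower and 0 higher, against 11.9% and 9.26% of all genes, with a median of -0.58. All recipient arrays lay below all SPF arrays for 22 genes in control recipients and 17 in PIC recipients, against 11.9% and 12.5% of all genes. Leaving out 1 array moved the calls in control recipients from 22 to 10 (without SPF 2), 12 (without SPF 4), 13 (without control recipient 1) or 12 (without control recipient 4), and those in PIC recipients from 25 to 13 (without SPF 2) or 16 (without SPF 4). Shares of all genes were not computed for these fits. Without both SPF 2 and SPF 4 the calls were 2 (Col28a1 and Spon2) in control recipients and 6 in PIC recipients (Col16a1, Col28a1, Eln, Emilin1, Spon2 and Thbs2), where 2.43% and 3.57% of all genes were called lower.

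Spon2 had the largest difference from SPF mice, at 10.31, 10.87, 10.58 and 10.88 on control and 11.07, 10.56, 10.51 and 10.15 on PIC recipient arrays, all well below the lowest SPF array. Its log2 fold change was -2.07 in control recipients (interval -2.70 to -1.44, adjusted p = 0.00168) and -2.16 in PIC recipients (interval -2.79 to -1.53, adjusted p = 0.000736). Eln was at 6.13, 6.18, 6.33 and 6.84 and 6.71, 6.18, 6.03 and 6.18, below every SPF array (-1.34, adjusted p = 0.00562, and -1.44, adjusted p = 0.00291).

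Col1a1, at 7.95, 8.45, 8.26 and 8.20 and 8.71, 7.86, 7.97 and 8.09, was lower by the test in both, but PIC 1 was above SPF 13 (-1.07, adjusted p = 0.00688, and -1.13, adjusted p = 0.00388). Thbs2 was at 8.16, 8.10, 8.31 and 8.17 and 8.01, 7.89, 7.72 and 8.24 (-1.07, adjusted p = 0.0115, and -1.29, adjusted p = 0.00352), and no recipient array reached the lowest SPF array. Col28a1, which overlapped between GF and SPF mice, was lower than in SPF mice in both recipient groups (-0.53, adjusted p = 0.019, and -0.52, adjusted p = 0.0167).

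Lama4 was the gene called higher, in control recipients, at 5.04, 5.35, 5.65 and 5.45 (0.35, interval 0.11 to 0.59, adjusted p = 0.0455), with control recipient 1 within the SPF range. In PIC recipients it was at 5.09, 5.30, 5.26 and 5.27 (0.21, adjusted p = 0.205). This dim probe was detected on 2 of 4 SPF, 3 of 4 control recipient and 4 of 4 PIC recipient arrays. Lamc3 was not detected on any recipient array and was at least 1.16-fold lower in control recipients (adjusted p = 0.0337) and at least 1.18-fold lower in PIC recipients (adjusted p = 0.0192) than in SPF mice. These bounds set the dim group at the lowest signal of a detected probe on each array.

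Genes around the structural proteins were set against SPF mice as well. Over all genes, 9.44% were called lower and 6.94% higher in control recipients, and 11.9% lower and 9.26% higher in PIC recipients. Of 21 biosynthetic and crosslinking genes, 0 were higher and 3 lower in control recipients, which is near the share of all genes called lower. In PIC recipients 1 was higher and 8 lower, the higher one being Pcolce2 (1.07, adjusted p = 0.0445). Loxl1 was lower by the test in both (-1.24, adjusted p = 0.0111, and -1.28, adjusted p = 0.00734), as was Itga5 (-1.33, adjusted p = 0.00137, and -1.18, adjusted p = 0.00115). Of 16 TGF-beta genes 8 and 10 were lower, and 0 higher. Smooth muscle markers were lower as well, 7 of 10 in each recipient group, with means of 10.66 to 11.01 in control and 10.79 to 10.84 in PIC recipients. With the smooth muscle mean as a covariate, 0 structural genes were called in control recipients, where 0.142% of all genes were called lower, and 2 in PIC recipients, where 0.73% were. Epithelial markers were called in 0 of 9 cases in either group, with means of 11.56 to 11.65 and 11.43 to 11.70. Without SPF 2 and SPF 4, each recipient group had 1 biosynthetic gene higher (Pcolce2), 0 crosslinking and biosynthetic genes lower, 2 TGF-beta genes lower (Tgfb3 and Ccn2), and 0 smooth muscle and 0 epithelial markers called, while Itga5 was still called lower. In that fit 2.43% and 3.57% of all genes were called lower in control and PIC recipients.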

How the data were processed

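The intensity deposited by the authors is the mean over the beads of a probe, neither background-subtracted nor normalized. Its standard error, the deposited count of beads (median per array 37 to 39) and the deposited detection p-value against negative controls stand beside it. They also deposited normalized log2 values for 16029 probes, which correlated at 1 with those obtained here and were used as an alternative. The submitters' processing notes name limma, whose version is unstated in the sources used here.

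Here, limma 3.58.1 in R 4.3.3 corrected the background (normexp, controls inferred from detection p-values), added an offset of 16 and quantile-normalized the intensities before log2 (neqc). Probes with a detection p under 0.05 on at least 4 arrays were kept (14102), and the brightest probe stood for each of 9862 genes. A mean for each of 4 groups was fitted over 16 arrays (12 residual degrees of freedom). Tests were two-sided moderated tests (eBayes) with Benjamini-Hochberg adjustment over all kept probes, and the fit was tested on simulated data. Genes given with the value of every array were the 3 largest called and the smallest difference of each class, and the leading genes of the other comparisons. Members, lists and alternatives were chosen with earlier results of these data known. Gene names come from the platform's annotation, matched to assembly GRCm38.p6.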

Additional observations from a re-analysis of the deposited data

Results flagged for a closer look

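Of 116 groups of 4 arrays tested (29 named genes in 4 groups), 5 held an array far from its others by Dixon's criterion, where chance gives about 1 in 20 groups. On the log2 scale, Col4a6 was at 5.78 on GF 2 against 4.77 to 4.94 on the other GF arrays, and Col5a1 was at 9.12 on GF 2 against 9.75 to 9.86. Col6a2 was at 8.91 on PIC recipient 1 against 7.98 to 8.08. Lama2 was at 6.94 on control recipient 3 against 6.65 to 6.69, and Thbs1 was at 5.0 on control recipient 1 against 5.61 to 5.71.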

How the results depend on the processing

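The 21 calls of SPF over GF mice became 9 with only these groups in the fit, 1 with the epithelial covariate, 1 with the smooth muscle covariate, 3 without SPF 2 and SPF 4, 3 without GF 2 as well, and 0 under the methods' t-test, which gave 20 at an unadjusted p under 0.05 (26.3% of all genes). Leaving out 1 array gave 15 to 28. The count against SPF mice (22 in control, 25 in PIC recipients) became 5 and 6 under the t-test, 0 and 2 with the smooth muscle covariate, 2 and 6 without SPF 2 and SPF 4, and 8 and 12 without GF 2 as well. In the last of these fits 4.03% and 5.47% of all genes were called lower. The count in control recipients was 10 with the epithelial covariate, where 3.04% of all genes were called higher and 4.64% lower. Leaving out 1 array gave 10 to 30 and 13 to 30. Shares of all genes were not computed for fits with 1 array left out, with only 2 groups or with array weights. They were also not computed for the t-test after adjustment, without background correction, with cyclic loess, with no filter or with Xist as a covariate. Those counts therefore cannot be set against the rest of the genes. The 0 calls of control recipients over GF mice became 1 with only these groups in the fit, with array weights and with either covariate, and 3 without the 3 arrays, but stayed at 0 to 0 without any 1 array. With the epithelial covariate 1.53% of all genes were called higher and 1.27% lower in this comparison. With the smooth muscle covariate the shares were 2.8% and 2.5%. The 1 call of PIC recipients over GF mice became 0 without background correction, with cyclic loess, median scaling, no filter, the t-test or Xist as a covariate, 3 with array weights, 4 with the epithelial covariate and 6 without the 3 arrays, and 0 to 1 without 1 array. With the epithelial covariate 2.6% of all genes were called higher and 3.07% lower in PIC recipients over GF mice. PIC over control recipients gave 0 in all 22 alternatives run. The cause was not tested. Median scaling, which shifted the median of all genes by -0.10 in control recipients over GF and by -0.17 and -0.14 in control and PIC recipients over SPF mice, moved the shares of all genes called higher and lower to 13.3% and 5.62% in SPF over GF (25 structural genes higher), 1.56% and 22.3% in control and 2.14% and 21.3% in PIC recipients over SPF, 0.466% and 2.04% in control and 0.892% and 5.31% in PIC recipients over GF.

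Single log2 fold changes of SPF over GF turned sign for Fbln7 (0.044 with the replicate block, 0.0049 with array weights, up to 0.10 without 1 array, GF 3), Col28a1 (-0.030 with array weights, -0.24 and -0.019 with the epithelial and smooth muscle covariates, -0.13 to 0.13 without 1 array, below 0 without GF 3 or SPF 2, -0.055 without SPF 2 and SPF 4, -0.063 without GF 2 as well), Dcn (-0.24 with the smooth muscle covariate, -0.11 without the 3 arrays), and Lama2 (-0.022), Lamc3 (-0.035) and Sparc (-0.037) with the smooth muscle covariate. Of the remaining values of named genes under an alternative, 554 kept direction and side of the threshold, 118 lost the call and 7 gained it.

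Replicate numbers are shared between groups but name no shared animal or day, and same-numbered arrays correlated from -0.545 to 0.357, so they were not treated as pairs. With the replicate number as a block, which leaves SPF 13 alone in its block, 25 genes were called in SPF over GF, 27 in control and 29 in PIC recipients over SPF, 0 in control and 1 in PIC recipients over GF, and 0 between recipients. The share of all genes called was not computed with this block. With 4 arrays a group, differences smaller than the median half-width of 0.45 were mostly not detectable. A call after adjustment over all probes generally needed a larger difference. Dim probes such as Col28a1 lie near the background.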
